A study of Mus musculus with 4 samples.

Results

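Astrocyte genes were followed in RNA of the mouse dentate gyrus after repeated electroconvulsive stimulation (ECS) and after chronic treatment with the selective serotonin reuptake inhibitor fluoxetine. The 10 genes were Gfap, Vim, Serpina3n and Cd44, which are known to increase in reactive astrocytes, and Aqp4, S100b, Aldoc, Gja1, Glul and Sox9, which astrocytes carry in the resting state. They were chosen by name, with earlier results of these data known. All 24 probe sets annotated to them were taken, out of 20380 probe sets with a single gene name that stand for 12393 genes, and 23 of the 24 averaged a signal of 50 or more. The 1 left out, below that level, belonged to Cd44.

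The 4 groups were male mice, C57Bl/6 by the labels and C57BL/6J or C57BL/6N by the methods, purchased at 8 weeks of age. The ECS group received 11 bilateral ECS sessions under isoflurane anesthesia, and the sham group went through the procedure with no current applied. The fluoxetine group took 22 mg/kg of fluoxetine per day for 28 days in drinking water with saccharin, and the vehicle group received water. The labels give 6 h after the last session for the ECS and sham arrays, whereas the methods give 24 h, so the time is uncertain. By the methods, the dentate gyrus was dissected from hippocampal slices of mice whose other slices were used for recordings. The fluoxetine mice were selected for a small frequency facilitation at the mossy fiber synapse (n = 3), so they do not stand for every fluoxetine-treated mouse. The RNA of each group was pooled onto 1 array, and there are 4 arrays and no replicates. No difference below was therefore tested, and no SD or p-value can be given.

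Astrocytes buffer potassium and water, take up glutamate and couple to each other through gap junctions. In the subgranular zone of the dentate gyrus, the radial stem cells also carry Gfap, Vim and Sox9. After seizures or injury, astrocytes become reactive, a state marked above all by more of the intermediate filament proteins GFAP and vimentin. Some of the 10 genes are shared with other cells, since Vim is carried by endothelial cells and Glul and S100b also by oligodendrocytes. In dissected tissue, a change in the number of cells of a type and a change in the RNA per cell cannot be told apart.

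The values are MAS5 signals, linear intensities that the Affymetrix software combines from the probes of a probe set. They had not been brought to a common level, and the median signal past the filter was 219 on the ECS array, 236 on the sham array, 365 on the fluoxetine array and 335 on the vehicle array. Each treated pool was set against its own control pool, ECS against sham and fluoxetine against vehicle, as the log2 ratio of the deposited signals. Their medians over all 13422 probe sets past the filter were -0.10 with ECS and 0.12 with fluoxetine, and each ratio below is to be read against these values. Where it matters, the ratio after median-centring is given as well, with the median log2 signal of each array subtracted from its values. The control spread of a probe set describes how far sham and vehicle lay apart, after centring, among the 500 probe sets of most similar signal (a scaled median absolute deviation). It is the only available measure of how far control pools differed. Signals of different probe sets are not comparable with each other. The 3' to 5' signal ratio of the control transcripts, a measure of RNA integrity, was 0.736 to 0.769 for Gapdh and 1.47 to 1.59 for Actb over the 4 arrays. Prox1, which defines granule cells, had signals of 98.3 with ECS, 112 with sham, 179.7 with fluoxetine and 154.5 with vehicle, so this marker was above 50 on every array. Of the 7 measured granule cell markers, however, 5 were at least 1.5-fold lower with ECS (3 after median-centring) and 5 with fluoxetine, with medians of -0.67 and -1.14. Another of them, Rasgrp1, was higher in both comparisons, at 1.02 and 1.74, with a sham signal of 43.6. The shares of all genes higher and lower by this size are given with the counts of the members.

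All 4 reactive genes were at least 1.5-fold higher in the ECS pool than in the sham pool, and all 4 were at least 1.5-fold higher in the fluoxetine pool than in the vehicle pool. Over all 7935 genes past the filter, with the brightest probe set for each gene, 3.84% were higher by this size with ECS, 8.49% with fluoxetine and 2.79% with both. None of the 6 general genes was higher or lower by 1.5-fold with ECS, and 2 of them, Aqp4 and Sox9, were higher with fluoxetine. None of the 10 genes was lower in either comparison, against 6.47% of all genes lower with ECS and 3.26% with fluoxetine. After median-centring, 4 of the 10 were higher with ECS, and 5 were with fluoxetine, as Sox9 was then under the size. The share of all genes was then 5.34% higher and 4.18% lower with ECS, and 5.82% higher and 5.13% lower with fluoxetine. Of the genes changed by this size, the higher ones made up 37.3% with ECS on the deposited scale and 56.1% on the centred scale. With fluoxetine these shares were 72.2% and 53.2%. Cd44 passed the signal filter only through its fluoxetine signal, so its place in these counts gives no support. With signals below 50 taken as 50, 3 members were higher with ECS.

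**Figure D1:**
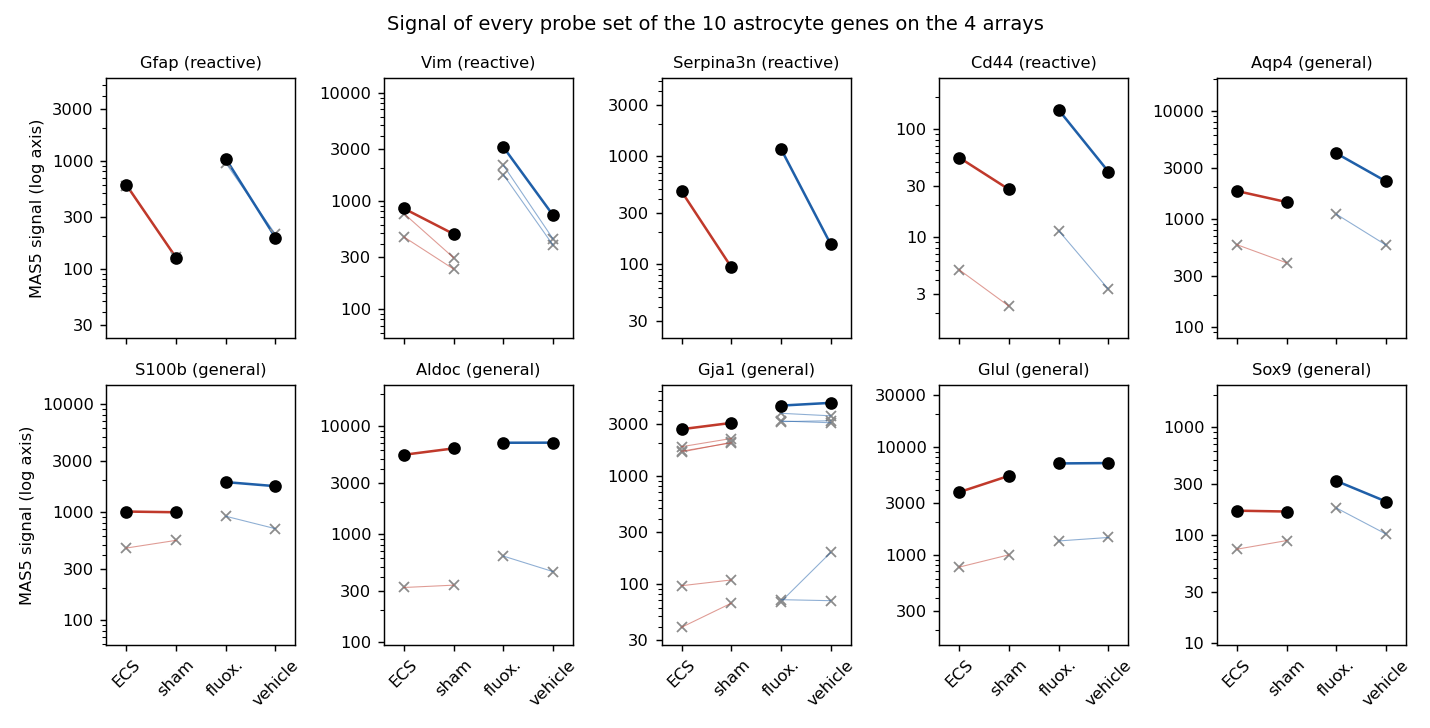
MAS5 signal of every probe set of the 10 genes on the ECS, sham, fluoxetine and vehicle arrays. Each panel has a log axis of the same length, filled circles are the brightest probe set of the gene, crosses are its other probe sets, and lines join a treated pool with its control pool. All lines of Gfap, Vim, Serpina3n and Cd44 slope down from treated to control, whereas the brightest probe sets of S100b, Aldoc and Gja1 are nearly level.

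For 2 of the filament genes and 1 general gene, the 250 bases upstream of the RefSeq start (GRCm38.p6) are shown, since the reactive genes were higher together in both comparisons. Capitals mark matches to TTCNNNGAA (the STAT motif), TGANTCA (the AP-1 motif) or TATAAA (the TATA motif), searched on both strands, none of which overlapped. The Gfap window lies at chr11:102897201-102897450 on the minus strand, that of Vim at chr2:13574061-13574310 on the plus strand and that of Gja1, the gap junction gene, at chr10:56377050-56377299 on the plus strand.
Gfap: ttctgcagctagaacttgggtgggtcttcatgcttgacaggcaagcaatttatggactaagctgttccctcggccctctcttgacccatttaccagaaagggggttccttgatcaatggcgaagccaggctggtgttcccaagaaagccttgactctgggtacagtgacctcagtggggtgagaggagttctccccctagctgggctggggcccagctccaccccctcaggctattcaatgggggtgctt
Vim: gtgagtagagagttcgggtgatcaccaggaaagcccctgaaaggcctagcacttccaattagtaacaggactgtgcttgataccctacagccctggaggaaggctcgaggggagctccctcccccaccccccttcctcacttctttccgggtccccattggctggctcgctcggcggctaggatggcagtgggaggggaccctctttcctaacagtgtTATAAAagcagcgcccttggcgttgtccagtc
Gja1: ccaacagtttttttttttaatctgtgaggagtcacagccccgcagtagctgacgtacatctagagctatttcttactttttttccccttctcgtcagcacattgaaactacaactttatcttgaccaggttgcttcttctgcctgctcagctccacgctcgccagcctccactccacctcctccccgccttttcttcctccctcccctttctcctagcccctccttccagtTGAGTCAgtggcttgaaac
Gfap had no match in these 250 bases. Vim had 1 TATA match, 32 bases before the start, and Gja1 had 1 AP-1 match, 19 bases before it. Windows were found for 8 of the 10 genes. Those of the reactive genes Serpina3n and Cd44 had no match to any of the 3 motifs, and the only STAT matches of the 8 genes were 2 in a second window of Aldoc. Over all 32851 windows of this length, 7.02% held a STAT match, 6.75% an AP-1 match and 12.4% a TATA match. A match is a run of letters and not a shown binding site, and its absence concerns these bases only.

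Gfap encodes the main intermediate filament protein of astrocytes. Its brightest probe set, 1426509_s_at, had a signal of 601.5 in the ECS pool and 127 in the sham pool, and 1048 in the fluoxetine pool and 195 in the vehicle pool. Both treated pools were thus above both control pools. The signals differed 4.72-fold with ECS and 5.37-fold with fluoxetine, and the log2 ratios were 2.24 and 2.43, with a control spread of 0.19. The other probe set, 1426508_at, had signals of 590.1 with ECS, 129.5 with sham, 954.8 with fluoxetine and 209.4 with vehicle. It gave 4.56-fold in both comparisons, so the probe sets of Gfap differed by less than 0.3 on the log2 scale. Between the control pools, sham over vehicle was at -0.11 and -0.19 (log2, centred) for these probe sets. Among the 7935 genes, Gfap ranked 25th from the top with ECS and 26th with fluoxetine.

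Serpina3n, a secreted serine protease inhibitor that reactive astrocytes make, had the largest ratio of the 10 genes in both comparisons. Its single probe set had a signal of 474 in the ECS pool and 94.3 in the sham pool, and 1169.7 in the fluoxetine pool and 153 in the vehicle pool. The signals differed 5.02-fold and 7.64-fold, and the log2 ratios were 2.33 and 2.93, with a control spread of 0.18. It ranked 22nd with ECS and 11th with fluoxetine among all genes. The Serpina3 genes are a cluster of near-identical copies, and none of the other 5 listed had a probe set of its own name here, so cross-hybridization between copies was not tested.

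Vim, which encodes the filament protein vimentin, was higher with both treatments, with a larger ratio for fluoxetine. Its brightest probe set, 1438118_x_at, had signals of 848 with ECS and 492 with sham, and 3139 with fluoxetine and 733 with vehicle. The probe set 1450641_at had 762 with ECS, 297 with sham, 2129.6 with fluoxetine and 442 with vehicle. The third, 1456292_a_at, had 463 with ECS, 233 with sham, 1744 with fluoxetine and 387 with vehicle. The 3 probe sets agreed in direction but not in size with ECS, where the log2 ratios were 0.79, 1.36 and 0.99, and were close to each other with fluoxetine, at 2.10, 2.27 and 2.17. Their control spreads were 0.14 to 0.15. The suffix of 1438118_x_at marks probes that may also bind other transcripts.

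Cd44 encodes a surface receptor for the matrix polymer hyaluronan. The probe set 1423760_at had a signal of 54.6 in the ECS pool and 27.7 in the sham pool, and 151 in the fluoxetine pool and 40.4 in the vehicle pool. The log2 ratios were 0.98 and 1.90, at a control spread of 0.37, the widest of the brightest probe sets of the 10 genes. Both control pools were below 50. With signals below 50 taken as 50, the log2 ratios were 0.13 for ECS and 1.59 for fluoxetine, so the ratio with ECS is uncertain. The other probe set, 1452483_a_at, had signals of 2.3 to 11.5 and was not counted.

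Among the general genes, Aqp4 stood nearest to the reactive ones. It encodes the water channel of astrocyte endfeet. The probe set 1434449_at had a signal of 1829.6 in the ECS pool and 1444 in the sham pool, and 4083 in the fluoxetine pool and 2245 in the vehicle pool. Its log2 ratios were 0.34 and 0.86 at a control spread of 0.14. The other probe set, 1425382_a_at, had signals of 583 with ECS, 396 with sham, 1116 with fluoxetine and 577 with vehicle, and log2 ratios of 0.56 and 0.95. After median-centring, this probe set was over 1.5-fold with ECS as well, at 0.67, while the brighter one was at 0.45.

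Sox9, a transcription factor of astrocytes and neural stem cells, was higher with fluoxetine only by the size used. The probe set 1451538_at had a signal of 169 in the ECS pool and 166 in the sham pool, and 319 in the fluoxetine pool and 206 in the vehicle pool. The log2 ratios were 0.03 and 0.63 at a control spread of 0.22, and the value with fluoxetine was 0.51 after median-centring, which is under 1.5-fold. The other probe set, 1424950_at, had signals of 74.5 with ECS, 89.5 with sham, 179 with fluoxetine and 103 with vehicle, and log2 ratios of -0.26 and 0.80. Whether the comparisons differ for Sox9 was not tested.

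S100b and Aldoc, a calcium-binding protein and the brain form of the glycolytic enzyme aldolase, changed little. The brightest probe set of S100b, 1434342_at, had signals of 1016 with ECS and 1001 with sham, and 1904 with fluoxetine and 1746 with vehicle, which are log2 ratios of 0.02 and 0.13. Its other probe set had -0.24 and 0.38. The brightest probe set of Aldoc, 1451461_a_at, had 5432 with ECS and 6222 with sham, and 7019 with fluoxetine and 7032 with vehicle, which are -0.20 and 0.00, and the other had -0.07 and 0.48. For Aldoc, sham over vehicle was at 0.33 (log2, centred), larger in size than either of its treated ratios on this probe set, at a control spread of 0.11.

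Gja1, which encodes the gap junction protein connexin 43, has 6 probe sets on this array. The brightest, 1437992_x_at, had a signal of 2685 in the ECS pool and 3071 in the sham pool, and 4442 in the fluoxetine pool and 4710.4 in the vehicle pool. Its log2 ratios were -0.19 and -0.08. The 3 other bright probe sets had -0.25 to -0.30 with ECS and -0.03 to 0.08 with fluoxetine. The dim probe set 1438973_x_at went apart from these with fluoxetine, with a signal of 68.1 in the fluoxetine pool and 194.6 in the vehicle pool, a log2 ratio of -1.51 at a control spread of 0.28, and -0.18 with ECS. The dimmest, 1415801_at, had -0.74 with ECS, or -0.40 with signals below 50 taken as 50, and 0.03 with fluoxetine. The bright probe sets of Gja1 thus give no decrease of 1.5-fold, and what the dim ones measure was not tested.

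Glul encodes glutamine synthetase, which turns glutamate taken up by astrocytes into glutamine. The probe set 1426236_a_at had a signal of 3789 in the ECS pool and 5367 in the sham pool, and 6989 in the fluoxetine pool and 7047 in the vehicle pool. Its log2 ratios were -0.50 and -0.01 at a control spread of 0.11. It was the lowest of the 10 genes with ECS, at -0.39 after median-centring, and was not 1.5-fold lower under either scale. The other probe set, 1426235_a_at, had -0.38 with ECS and -0.11 with fluoxetine.

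**Figure D2:**
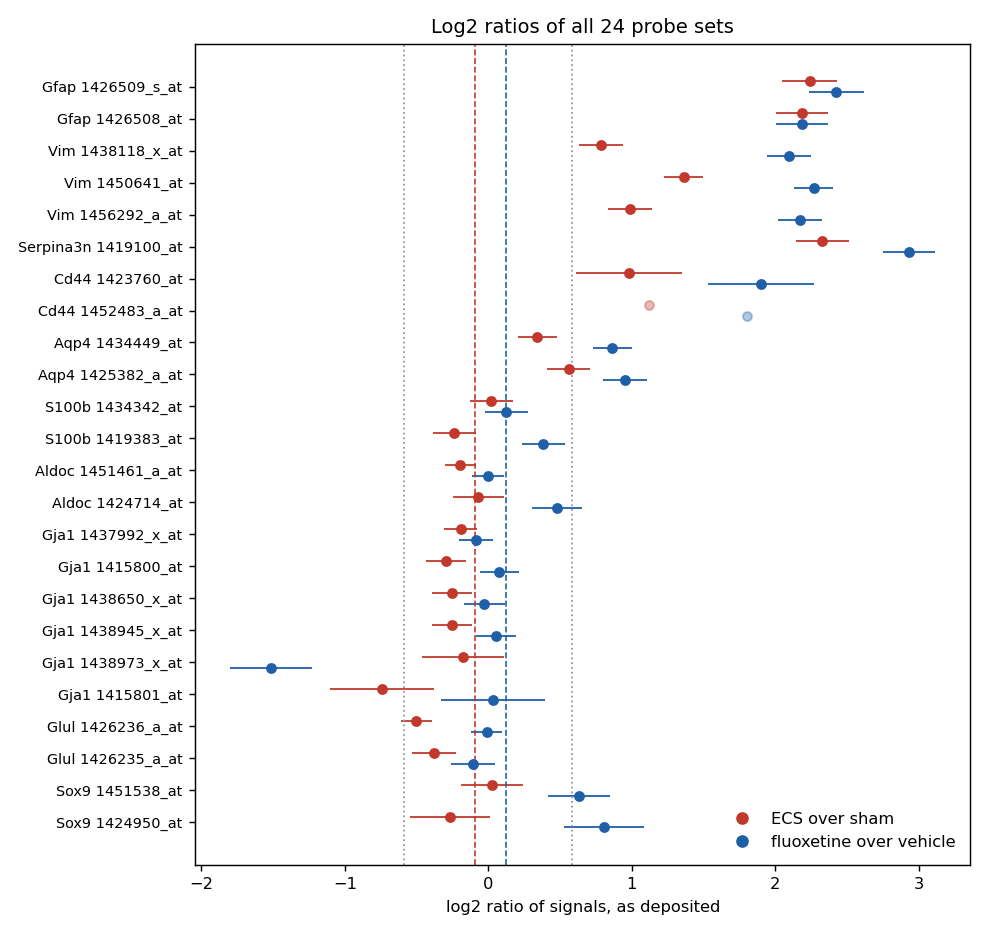
Log2 ratio of ECS over sham (red) and of fluoxetine over vehicle (blue) for all 24 probe sets, as deposited. Bars are the control spread on each side, dashed lines mark -0.10 and 0.12, where the median probe set lay, dotted lines 1.5-fold, and the pale points are the Cd44 probe set below the signal filter, which has no control spread. The probe sets of Gfap, Vim, Serpina3n and Cd44 lie at 0.79 to 2.93, right of the dotted line in both comparisons.

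Set side by side, the reactive genes had a median log2 ratio of 1.61 with ECS, with a range of 0.79 to 2.33, and the general genes a median of -0.09, with a range of -0.50 to 0.34. With fluoxetine, the reactive genes had a median of 2.26 and a range of 1.90 to 2.93, and the general genes a median of 0.06 and a range of -0.08 to 0.86. The medians thus differed by 1.70 with ECS and by 2.20 with fluoxetine, and on the deposited signals the ranges of the lists did not overlap. With ECS this rests on Cd44, which with signals below 50 taken as 50 had 0.13, below Aqp4 at 0.34, so that the ranges then overlapped. The medians over all genes were -0.10 and 0.12, so the general genes lay near them. This contrast does not depend on the overall scale of the arrays, as both lists are measured on the same ones. The members were chosen with earlier results of these data known, so the contrast is a description only. The summed signal of the general genes was 14921 in the ECS pool and 17273 in the sham pool, and 24756 in the fluoxetine pool and 22986 in the vehicle pool, which are sums of unscaled signals. Between the control pools, the reactive genes had a median of -0.09 for sham over vehicle (log2, centred). With the control arrays exchanged and each array centred, Gfap had 2.24 with ECS and 2.41 with fluoxetine, Serpina3n 2.24 and 3.00, Vim 0.82 and 2.05 and Cd44 1.05 and 1.81. Gfap, Serpina3n and Vim were therefore over 1.5-fold higher with either control pool, while the signals of Cd44 in both control pools were below 50. Aldoc and S100b changed sign with ECS, at 0.24 and -0.17, and Sox9 had 0.33 and 0.31.

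The size of the change differed more between the treatments for Vim than for Gfap. After median-centring, the log2 ratio with fluoxetine exceeded that with ECS by 1.08 for Vim, 0.69 for Cd44, 0.37 for Serpina3n and -0.05 for Gfap. The other probe sets of Vim gave 0.67 and 0.95, and the other probe set of Gfap -0.23. Over all genes, 5% of these differences were below -0.56 and 5% were above 0.56. With 1 array a group, none of these differences between the treatments was tested, and the doses, durations and controls of the treatments differ.

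**Figure D3:**
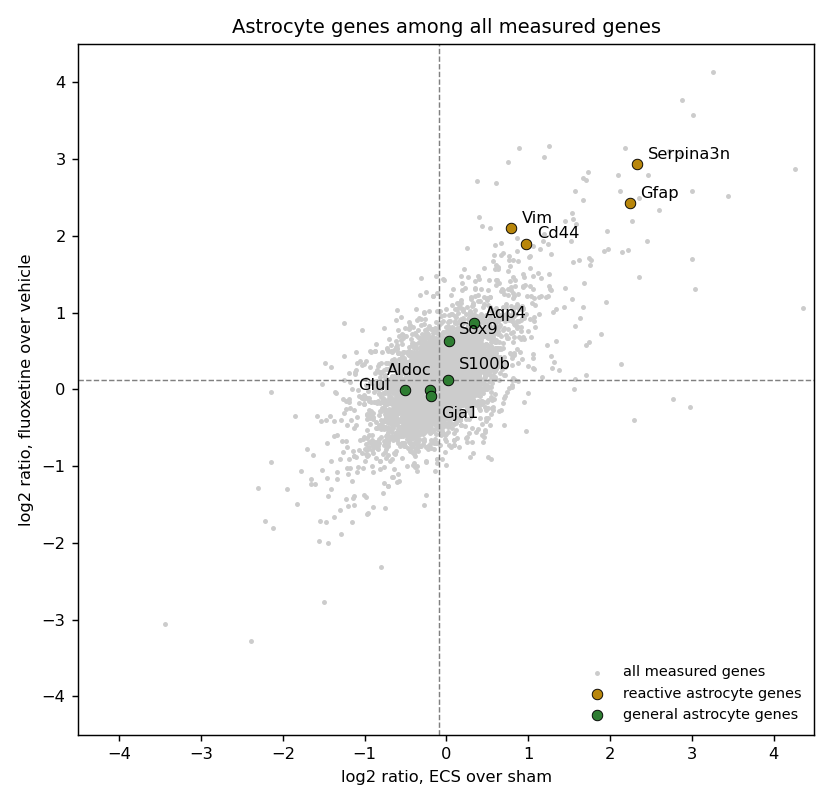
Log2 ratio of fluoxetine over vehicle against that of ECS over sham for the 7935 measured genes (grey), with the reactive (yellow) and general (green) astrocyte genes named. Dashed lines mark the median probe set, and 3 genes lie outside the axes. Gfap and Serpina3n lie at 2.24 and 2.33 with ECS, Vim and Cd44 at 0.79 and 0.98, and Gja1, Aldoc and S100b near the crossing of the dashed lines, with Glul to its left at -0.50.

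Genes with a pattern close to that of Gfap were sought by the distance between genes in the pair of log2 ratios, over 7935 genes and 2 ratios. The 5 nearest were Gadd45b, a gene induced by activity and stress, at 2.35 with ECS and 2.49 with fluoxetine, S100a4, a small calcium-binding protein, at 2.12 and 2.58, Rgs4, a regulator of G protein signalling, at 2.27 and 2.20, the neuropeptide galanin gene Gal, at 2.60 and 2.34, and the guidance cue gene Sema3a, at 2.10 and 2.79. The sham signals of S100a4 (26.1) and Sema3a (24.2) were below 50, so their ratios with ECS are of uncertain size. Nearest to Vim were Fam43a (0.86 and 1.97), Rspo2, a secreted enhancer of Wnt signalling (0.66 and 1.90), Pmepa1, an inhibitor of TGF-beta signalling (0.54 and 2.11), Cd44, and Ctla2a (0.59 and 1.88). Likeness over 2 ratios is a description and says nothing of shared control.

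Other astrocyte genes were described by lists. The counts of these and of all later lists stand against 3.84% higher and 6.47% lower of all genes with ECS, and 8.49% and 3.26% with fluoxetine. After median-centring, these shares were 5.34% and 4.18% with ECS, and 5.82% and 5.13% with fluoxetine. Of 30 other general astrocyte genes, 26 were measured. With ECS 1 was higher and 2 lower by 1.5-fold, which is near the shares of all genes. With fluoxetine 4 were higher and 2 lower, and the medians were 0.03 with ECS and 0.28 with fluoxetine. After median-centring these counts were 2 higher and 1 lower, and 3 higher and 2 lower. Kcnj10, the potassium channel of astrocyte membranes, was the 1 gene higher with both. It had signals of 532 in the ECS pool and 242 in the sham pool, and 1180.5 in the fluoxetine pool and 514 in the vehicle pool, which differ 2.20-fold and 2.30-fold, although the sham pool itself was below the vehicle pool by a centred log2 ratio of -0.58. Mfge8, a secreted protein that aids the engulfment of dying cells, was lower with both, at -0.91 and -0.79. Id3, a transcriptional inhibitor, had 0.32 and 0.76, and Cbs, an enzyme of sulfur amino acid metabolism, 0.49 and 0.57, both under 1.5-fold with ECS. The other probe set of Cbs, with a mean signal of 57.1, had -0.38 and 0.33.

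The medians of the next lists, over their measured genes, were below the ratios of Gfap and Serpina3n. Single genes could lie above these, such as Ptgs2 at 3.04 with ECS. Of 9 other genes of reactive astrocytes in general, only 3 passed the signal filter, and none was 1.5-fold higher with ECS, whereas 2 were with fluoxetine. These were Osmr, the oncostatin M receptor, at 0.33 and 1.13, and the iron oxidase gene Cp, at 0.30 and 0.92, while the heat shock protein gene Hspb1 had 0.11 and 0.45. A second probe set of Hspb1 had 0.71 and 1.39, over 1.5-fold in both comparisons. Below the filter lay Cxcl10, a chemokine gene, with signals of 66.1 with ECS, 6.7 with sham, 47.7 with fluoxetine and 3.7 with vehicle. Timp1, an inhibitor of matrix proteases, had 46.6 with ECS, 21.4 with sham, 86.6 with fluoxetine and 13.3 with vehicle. For both genes the treated pools were above the control pools, and all signals but 1 each were below 50, so no fold is given. Lcn2 was at 17.5 or less on every array. Of 7 measured genes of the neurotoxic type of reactive astrocyte, 1 was higher with ECS, and with fluoxetine 4 were higher (3 after median-centring) and 1 lower, with medians of 0.31 and 0.65. Gbp2, an interferon-induced GTPase, had 0.83 and 1.34, Fbln5, a matrix protein, 0.19 and 1.38, and the class I histocompatibility gene H2-D1 0.47 and 0.81, with 0.71 and 0.81 on its next probe set. Signals of Gbp2 were below 50 in both control pools, and those of Fbln5 in every pool but the fluoxetine pool. With signals below 50 taken as 50, Gbp2 had 0.21 and 1.14, so it was under 1.5-fold with ECS, and Fbln5 had 0.00 and 0.89. Both passed the signal filter only through their fluoxetine signals, so their places in these counts give no support.

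Of 5 measured genes of the injury type, 4 were higher with fluoxetine. With ECS 3 were higher and Cd14 was lower, and the list had medians of 0.91 and 0.90. They include Ptgs2, the inducible cyclooxygenase, at 3.04 and 1.31, which neurons of the hippocampus also make after activity, S100a10 at 0.93 and 1.09, and Ptx3, a secreted pentraxin, at 0.91 and 0.90. Ptx3 had a sham signal of 38.9 and Cd14 an ECS signal of 36.0. With signals below 50 taken as 50, their ECS ratios were 0.55 and -0.28, so neither was 1.5-fold, and the median of the list with ECS was 0.55. The shortened names of these lists come from mouse studies of injured brain, and 7 of the 12 listed genes of the injury type and 5 of the 12 of the neurotoxic type were not measured here.

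Signalling through the gp130 receptor and STAT3 is known to drive Gfap in reactive astrocytes. Of 9 measured genes of this list, 1 was higher with ECS, 2 were lower with it, and 2 were higher with fluoxetine (1 after median-centring), with medians of 0.08 and 0.33. Pim1, a kinase gene induced by STAT factors, had signals of 109.6 with ECS and 34.2 with sham, and 119 with fluoxetine and 45.5 with vehicle, and log2 ratios of 1.68 and 1.39, or 1.13 and 1.25 with signals below 50 taken as 50. Stat3 itself had 0.23 and 0.55. The receptor genes Lifr and Cntfr had -0.70 and -1.01 with ECS, and -0.32 and -0.12 with fluoxetine. The STAT3 target Socs3 lay below the filter, with signals of 15.5 with ECS, 14.6 with sham, 118.5 with fluoxetine and 13.5 with vehicle, so that it was above 50 in the fluoxetine pool alone.

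Other intermediate filament genes were partly higher as well. Of 7 measured, 3 were higher with ECS, and these and 2 more with fluoxetine (4 in all after median-centring), with medians of 0.31 and 0.78. These 3 were the neurofilament genes Nefl (0.75 and 0.79) and Nefm (1.16 and 1.46), which are neuronal, and Lmna, a nuclear lamin gene (0.73 and 1.11, and 0.34 and 0.50 on its other probe set). Nes, the filament of neural stem cells, had signals of 53.9 with ECS, 63.0 with sham, 56.2 with fluoxetine and 49.4 with vehicle. Of the 6 other measured S100 genes, 3 were higher with both treatments, namely S100a4, S100a6 (2.29-fold and 4.06-fold) and S100a10, whereas S100a13 had -0.07 and 0.32.

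By their brightest probe sets, genes of radial glia and neural stem cells all had log2 ratios below 0 with ECS on the deposited scale. The median over all genes was itself below 0 there, at -0.10. After median-centring, 1 of the 13 measured genes was above 0 with ECS, against 4114 of all 7935 genes. Of 13 measured, 3 were lower with ECS and none was higher, with a median of -0.30 and a highest value of -0.07. With fluoxetine 2 were higher and 1 lower, with a median of 0.00. Hes5, a Notch target, had -0.79 and -2.31, with a signal of 19.2 in the fluoxetine pool, or -0.79 and -0.93 with signals below 50 taken as 50. The other probe set of Hes5, with a mean signal of 56.8, had -1.93 and -0.82, so the larger decrease was then with ECS. The receptor gene Notch1 had -0.16 and 1.21, and 0.40 and 0.62 on its other probe set. Pax6 had -0.75 and -0.49 and Id4 -0.40 and -0.37. The other probe sets of Id4 had 0.02 and -0.38 with ECS, and -0.28 and -0.13 with fluoxetine. On the centred scale, the list had 2 genes lower with ECS, and 1 higher and 2 lower with fluoxetine, and its median with ECS was -0.19. The sham pool was itself above the vehicle pool for this list, by a median of 0.17 (log2, centred), and with the control arrays exchanged the median with ECS was -0.05.

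The next lists follow the functions of Glul, Aldoc, Gja1, Aqp4 and Cd44, and their counts stand against 3.84% higher and 6.47% lower of all genes with ECS, and 8.49% and 3.26% with fluoxetine. Of 7 measured genes of the glutamate and glutamine cycle, which Glul serves, 2 were lower with ECS (1 after median-centring) and none was past 1.5-fold with fluoxetine. These 2 were the glutamine carrier gene Slc38a2 (-0.73 and -0.19) and the glutamate transporter gene Slc1a3 (-0.64 and 0.05, or -0.53 and -0.08 after median-centring). Slc1a3 also stands in the other general astrocyte list and the radial glia list, and is counted as lower with ECS in each. Another glutamate transporter gene, Slc1a2, had 0.43 and 0.53. Of 16 measured genes of glycolysis and glycogen, 5 were higher with fluoxetine and 2 with ECS, or 3 and 3 on the centred scale, among them Pfkp (0.94 and 1.06) and Hk2 (0.60 and 1.36). Of 7 genes of gap junctions and of the anchoring of Aqp4, 2 were lower with ECS, the dystrobrevin gene Dtna (-0.90 and -0.36) and the dystrophin gene Dmd (-0.61 and -0.65), and with fluoxetine 1 was higher and 1 lower. After median-centring Dmd was at -0.50 with ECS, under 1.5-fold, and the heparan sulfate proteoglycan gene Agrn at 0.64, so 1 gene was higher and 1 lower. The 5 other probe sets of Dtna had -0.36 to 0.11 with ECS. Of 4 measured genes around hyaluronan and the ezrin family that binds Cd44, none was changed with ECS and 2 were higher with fluoxetine, Rdx (-0.11 and 0.74) and Msn (0.16 and 0.86), while 2 other probe sets of Rdx had 0.32 and -0.20 with fluoxetine.

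Markers of other cell types moved in part with fluoxetine. Their counts stand against 3.84% higher and 6.47% lower of all genes with ECS, and 8.49% and 3.26% with fluoxetine. Of 13 measured microglia markers, 5 were higher with fluoxetine, while 1 was higher with ECS and 2 were lower, with medians of -0.21 for ECS and 0.47 for fluoxetine. After median-centring none was lower with ECS and 4 were higher with fluoxetine. The complement genes C1qa, C1qb and C1qc had 0.18, 0.18 and 0.02 with ECS, and 0.67, 0.82 and 0.82 with fluoxetine. Cd68 had 0.72 with ECS and 0.95 with fluoxetine. The 2 lower with ECS were P2ry12, at -0.60 and -0.23, and Trem2, at -0.61 and 0.58. Trem2 had an ECS signal of 44.6, and its ratio with ECS was -0.44 with signals below 50 taken as 50. The summed signal of all 13 measured microglia markers was 5227 in the ECS pool and 5808.5 in the sham pool. It was 11006 in the fluoxetine pool and 7937 in the vehicle pool, and these are sums of unscaled signals. None of 11 oligodendrocyte markers was past 1.5-fold on the deposited scale, and after median-centring Sox10 was lower with fluoxetine, at -0.60. Of 10 endothelial and pericyte markers 2 were higher with fluoxetine and 1 was lower with ECS. On the centred scale, 1 was higher with fluoxetine, 1 with ECS, and none was lower. Tagln, the 1 higher with fluoxetine on both scales, had signals below 50 in every pool but the fluoxetine pool (113.2). Its place in these counts therefore gives no support. Of 6 markers of meningeal fibroblasts, which carry Vim, 1 was higher and 2 were lower with ECS. With fluoxetine 2 were higher and 1 was lower (2 lower after median-centring). Col1a2 had 1.02 and 1.58, and Ogn -3.45 and -3.05. The signals of Ogn were 20.8 with ECS and 27.7 with fluoxetine. With signals below 50 taken as 50, its log2 ratios were -2.18 and -2.20. The part of meningeal fibroblasts in the ratios of Vim, Serpina3n and Cd44 was not tested. Of the choroid plexus and ependyma markers, only Kl was measured. It had signals of 53.9 with ECS, 70.6 with sham, 76.3 with fluoxetine and 129.6 with vehicle. Its log2 ratios were -0.39 and -0.76, so it was over 1.5-fold lower with fluoxetine. Ttr and Foxj1 of the same list were below 50 on every array.

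**Figure D4:**
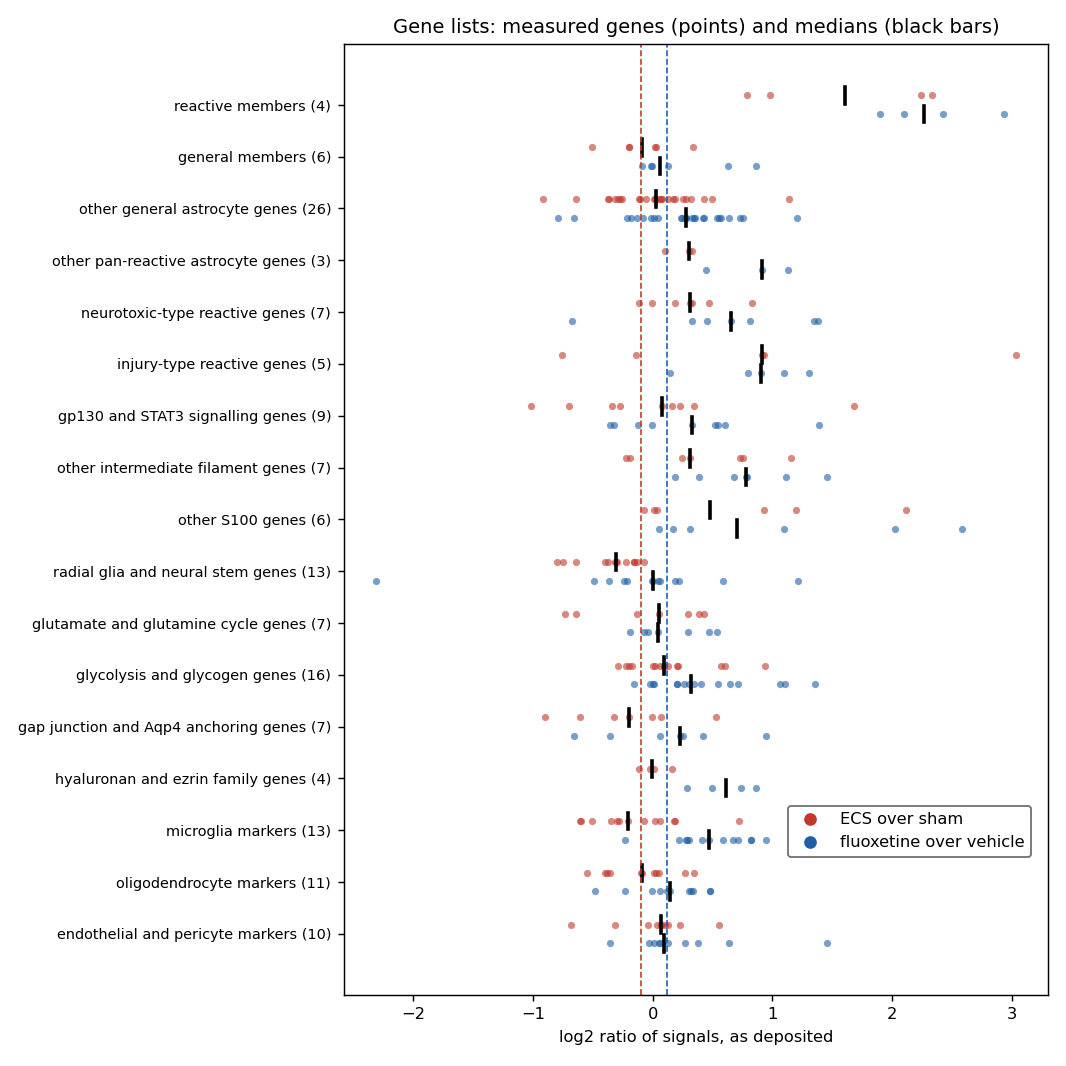
Log2 ratios on the deposited scale by gene list, for ECS (red) and fluoxetine (blue). A point stands for 1 gene through its brightest probe set, a black bar for the list median, the number in parentheses for its measured genes, and a dashed line for the median probe set (-0.10 and 0.12). The medians of the reactive members, 1.61 and 2.26, lie furthest right of these lists in both comparisons, and the radial glia list has its median at -0.30 with ECS.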

How the data were processed

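Total RNA of the dissected dentate gyrus was pooled by group, amplified with a 3'IVT kit and hybridized to Affymetrix mouse genome 430A 2.0 arrays, 1 per group. The deposited intensities are linear signals that the authors computed with MAS5, whose version is not given in the sources used here, and they have no common scale. The log2 ratio of each treated pool over its control pool was taken from them in Python 3.11.15 (pandas 2.3.3, numpy 2.4.6, scipy 1.17.1, and matplotlib 3.10.9 for figures). A probe set was dropped where its 4 signals averaged under 50, and so were the 64 control probe sets. This is 1 reading of the filter in the study's methods, whose wording also allows dropping only those under 50 in every condition. The second reading, tried as an alternative, keeps genes such as Cxcl10, Timp1 and Socs3. Called means at least 1.5-fold. No test was run, since each group is 1 array, and the precision is limited by this number.

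Gene names come from the platform annotation, in which 691 probe sets have several genes and 1555 none, and these were not named. The brightest probe set stands for a gene unless stated. The genes named are all members, up to 4 genes of each list with the largest absolute mean of both ratios, and the 5 genes nearest to Gfap and to Vim. Other genes named (among them Lcn2, Timp1, Cxcl10, Socs3, Nes, Prox1, Slc1a3, P2ry12, Trem2, Ttr and Foxj1) were chosen after their values were seen. The members and lists were chosen with earlier results of these data known. The steps were tested on simulated data. Alternatives were median-centring, quantile normalization, a floor of 50, a pseudocount of 16, the mean over probe sets, other signal filters (at least 1 array at 50, none, a mean of 200), exchanged control arrays, and sizes of 1.2-fold and 2-fold. Sequences are from RefSeq, GRCm38.p6, and coordinates are those of that table.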

Additional observations from a re-analysis of the deposited data

Results flagged for a closer look

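The members and the list genes named by the rule on the mean of both ratios gave 94 probe sets. Of these, 6 had ratios of opposite sign with ECS and with fluoxetine, both as deposited and after median-centring. The share of all probe sets with such opposite signs was not counted, so whether 6 of 94 is unusual is not known. The difference was not tested for any of them, as each ratio rests on 1 array a group. Among the members, the second probe set of Sox9 had centred log2 ratios of 0.68 with fluoxetine and -0.16 with ECS, a difference of 0.83, and that of S100b 0.26 and -0.13, a difference of 0.39. Their brightest probe sets had 0.51 and 0.13 for Sox9, and 0.00 and 0.13 for S100b. Among the list genes, Cd14 had 0.67 with fluoxetine and -0.65 with ECS, a difference of 1.32, at signals of 36.0 with ECS, 60.9 with sham, 111 with fluoxetine and 63.9 with vehicle. Notch1 differed by 1.14, Tagln by 1.53 and Rdx by 0.62, all with the higher value for fluoxetine. Tagln had signals below 50 in every pool but the fluoxetine pool (113.2). With signals below 50 taken as 50, its log2 ratio with ECS was 0, so the signs were no longer opposite. Other probe sets of Rdx had like signs in both comparisons, with deposited log2 ratios of 0.19 and -0.49 with ECS and 0.32 and -0.20 with fluoxetine. A second probe set of Notch1 had the same sign in both comparisons, with deposited log2 ratios of 0.62 with fluoxetine and 0.40 with ECS.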

How the results depend on the processing

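The alternatives were run on the 10 members, the list medians and the counts, and not on single list genes. Among the members, none reversed a ratio past 1.5-fold. The 4 reactive genes had a median of 1.44 to 2.24 with ECS and of 2.12 to 2.43 with fluoxetine over 9 alternatives, and the general genes -0.13 to 0.03 and -0.06 to 0.25. With a pseudocount of 16 the difference of the medians with ECS was 1.52. When probe sets of a gene were averaged, the general genes had a median of 0.25 with fluoxetine and the difference was 2.00. With a mean signal of at least 200, which leaves Cd44 out, the median of the reactive genes with ECS was 2.24, and the differences were 2.33 with ECS and 2.36 with fluoxetine. The members higher with ECS numbered 2 at 2-fold, namely Gfap and Serpina3n, and 1 member, Glul, was lower with ECS at 1.2-fold. Cd44 with ECS was the member most bound to low signals, at 0.13 with signals below 50 taken as 50. The counts over all genes moved more over 11 alternatives. Against 305 higher and 513 lower with ECS, they were 111 to 1484 and 112 to 2069, and against 674 higher and 259 lower with fluoxetine, 221 to 2423 and 64 to 1396. No replicate could be left out, and no paired analysis was possible because each group is 1 array.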
